A study of Homo sapiens with 4 samples.

Results

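The m6A peaks on transcripts of genes that control p53, or belong to its family, were examined in the peak lists of an m6A immunoprecipitation. The 9 genes were MDM2, MDM4, PPM1D, TP53BP1, TP53BP2, TP53INP1, TP53INP2, TP63 and TP73, of 20046 protein-coding genes in GENCODE version 44. A peak was counted for a gene when its summit, the base of highest signal, lay in the gene body on hg38. By this rule 13 of 24607 peaks in replicate 1 and 13 of 19318 peaks in replicate 2 belonged to these genes. The rule uses gene symbols and summit positions, not the height of a peak, but the genes were proposed with earlier results of these data known.

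The cells were OE-19, an established line of adenocarcinoma of the esophagogastric junction (AEG), grown in RPMI1640 medium with fetal bovine serum and antibiotics and given no treatment. In meRIP-seq, an antibody captures RNA pieces that bear N6-methyladenosine (m6A), and the places on the genome where the captured reads are in excess become peaks. There were 4 samples, 2 of the m6A IP and 2 of input RNA, all from this 1 line. Each IP replicate had its own list of peaks, and the inputs had no list analysed here, so the values describe 1 group with 2 samples and no test between groups was made. The replicate numbers come from the sample titles. No p-value was computed, and a difference between the replicates is given as both values. The lists hold no read numbers, so the depth behind a peak is unknown, and the level of each mRNA was not measured in them. A missing peak therefore cannot be told apart from a transcript that is scarce in these cells. Of 5 epithelial markers, CDH1 had an exonic peak in both replicates and EPCAM, KRT8, KRT18 and KRT19 had none in either. Of 4 markers of other cell types, COL1A1 had a peak in replicate 1 and VIM, PTPRC and PECAM1 had none. Peaks are not expression levels, so these counts neither check nor contradict the labelled cell type.

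p53 is a transcription factor that is kept scarce in unstressed cells and that, once stabilised by DNA damage or other stress, switches on genes of cell cycle arrest, repair and cell death. MDM2 is the ubiquitin ligase that sends p53 to the proteasome and is itself a p53 target, and MDM4 is its relative that binds the activation domain of p53 and pairs with MDM2. PPM1D (WIP1) is a phosphatase, also induced by p53, that removes activating phosphates from p53 and its kinases. TP53BP1 (53BP1) is a chromatin reader at DNA double-strand breaks, TP53BP2 (ASPP2) steers p53 towards death genes, TP53INP1 and TP53INP2 are stress and autophagy proteins, and TP63 and TP73 are the p53 family members of epithelia and of neural and ciliated cells. m6A is laid down on mRNA mainly at adenines in the sequence DRACH (A, G or T, then A or G, then A and C, then A, C or T), of which GGAC is the most favoured core, and it collects near stop codons and in long exons.

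The methylation peaks divided the 9 genes into 5 with and 4 without. MDM2, MDM4, PPM1D, TP53BP1 and TP53BP2 had at least 1 peak with the summit in an exon in each replicate. TP53INP1, TP53INP2, TP63 and TP73 had no exonic peak in either. Over all protein-coding genes, 42.4% had an exonic peak in replicate 1, 34.1% in replicate 2 and 33.4% in both, against 5 of 9 members in each case. With 9 genes this count is a description and no excess is read from it. Of the members' peaks, 12 of 13 in replicate 1 had an exonic summit and 10 of 13 in replicate 2. Over all protein-coding genes there were 19393 exonic peaks in replicate 1 and 12557 in replicate 2, from lists of 24607 and 19318 peaks. Those lists also hold peaks outside gene bodies, so the shares have unlike bases and no excess is read.

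GGAC sites near these summits are printed first, to show the letters around the core in each exon that had one within 50 nt. Each is 30 bases of the hg38 reference on the strand of the gene, 5′ to 3′, with the GGAC core in capitals, and in each the adenine of the core is the base counted in the distances below.
MDM2 exon 11, 3′ UTR, chr12:68842257-68842286: tacggaaagttcaGGACatcaaagaagtca
PPM1D exon 1, 5′ UTR, chr17:60600374-60600403: ggcgggctgcgtgGGACcggcgggatcccg
PPM1D exon 6, CDS, chr17:60663328-60663357: acaaactttaaaaGGACattagaagagtcc
TP53BP1 exon 12, CDS, chr15:43456321-43456350: aagctacttcagaGGACtccagtgttgtca
TP53BP1 exon 17, CDS, chr15:43432296-43432325: gtgtgtgagcaggGGACcagtacagtggac
TP53BP2 exon 12, CDS, chr1:223798586-223798615: tttgccttattttGGACaaactaatcagcc
TP53BP2 exon 13, CDS, chr1:223796238-223796267: cttttatatcagaGGACcaccatagcggcc
TP53BP2 exon 18, 3′ UTR, chr1:223780667-223780696: attcaccattagaGGACatttagcgtgatg
The exon numbers follow the Ensembl canonical transcript of each gene. TP53BP1 and TP53BP2 lie on the minus strand and the others on the plus strand. A match of the letters is a description of the site and does not show that its adenine is the modified base.

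MDM2 (chr12:68808177-68845544, plus strand) carried 2 peaks in each replicate, both in exon 11, the last exon, whose 6271 nt make up most of the 7490-nt transcript. The stronger peak lay in the 3′ UTR. It spanned chr12:68841705-68842614 in replicate 1, with a fold enrichment over the local background of 17.0 and a −log10 q of 72.5. In replicate 2 it spanned chr12:68841790-68842491, with a fold enrichment of 7.75 and a −log10 q of 50.6. The summits were 35 bp apart, 2426 and 2391 nt past the stop codon. In replicate 1 this was the highest fold enrichment among the members, at the 98.4th percentile of all exonic peaks, and in replicate 2 it was at the 84.1st. The GGAC site printed above for MDM2 had its adenine 1 nt before the summit of replicate 1. In replicate 2 the adenine of this site was 34 nt after the summit. Another GGAC, not printed, was nearer, 17 nt after that summit.

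The gene of origin of this 3′ UTR peak is uncertain. The same bases lie in an exon of CPM, a carboxypeptidase gene on the opposite strand, and in a processed pseudogene (ENSG00000256664) on the MDM2 strand, and the deposited lists give no strand. The summit also fell in an exon of only 1 of the 36 annotated MDM2 transcripts, the canonical one with the long 3′ UTR. Without this peak, MDM2 still had an exonic peak in both replicates.

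The weaker MDM2 peak lay in the coding part of exon 11. It spanned chr12:68839364-68839674 with fold enrichment 5.83 in replicate 1 and chr12:68839387-68839791 with fold enrichment 4.28 in replicate 2. The summits were 292 and 332 nt before the stop codon, at codons 400 and 387 of 497. No other annotated gene had an exon there. There was no GGAC within 50 nt of either summit, and the only DRACH word was AGACT, with its adenine 4 nt before the summit in replicate 1 and 36 nt after it in replicate 2.

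MDM4 (chr1:204516379-204558120, plus strand) had a single peak in each replicate, at nearly the same borders. It spanned chr1:204549167-204549711 with fold enrichment 9.79 and −log10 q 53.9 in replicate 1. In replicate 2 it spanned chr1:204549166-204549689 with fold enrichment 11.5 and −log10 q 69.0. The summit was the same base in both lists, 198 nt before the stop codon at codon 425 of 490. It too lay in the last exon, which is 9008 nt long, and no peak was called in the long 3′ UTR that follows. MDM2 and MDM4, the paired p53 inhibitors, thus both had a coding peak in their last exon. This was not particular to them, since PPM1D, described below, had one as well.

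The coding windows of MDM2 and MDM4 are printed because both lacked GGAC. They hold 101 bases of hg38 centred on the summit, 5′ to 3′ on the gene strand, with each DRACH word in capitals.
MDM2 exon 11, replicate 1, chr12:68839505-68839605: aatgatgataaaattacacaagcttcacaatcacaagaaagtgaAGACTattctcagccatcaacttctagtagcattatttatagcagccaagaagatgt
MDM4 exon 11, both replicates, chr1:204549432-204549532: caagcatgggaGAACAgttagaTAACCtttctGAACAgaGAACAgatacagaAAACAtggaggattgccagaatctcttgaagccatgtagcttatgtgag
The MDM4 window held 5 DRACH words, 3 of them the same word GAACA, and the nearest had its adenine 4 nt after the summit. Across the whole MDM4 peak there was 1 GGAC, outside the window.

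PPM1D (chr17:60600193-60666280, plus strand) had its strongest peak in exon 6, the last, upstream of the stop codon. In replicate 1 it spanned chr17:60663026-60663612 with fold enrichment 9.15 and −log10 q 38.1. In replicate 2 it spanned chr17:60663083-60663586 with fold enrichment 13.9 and −log10 q 58.6. The summits were 2 bp apart, 196 and 194 nt before the stop codon, at codons 540 and 541 of 605. The GGAC site of exon 6 lay 11 nt before the summit in replicate 1 and 13 nt before it in replicate 2.

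Replicate 1 alone had a further PPM1D peak, in the 5′ UTR part of exon 1 at chr17:60600293-60600460, with fold enrichment 4.83 and −log10 q 13.6. Its GGAC adenine was 2 nt after the summit. The window of this peak was 77.2% G and C, the highest among the members. Over all genes, 41.0% of the 5′ UTR exonic peaks of replicate 1 overlapped a peak of replicate 2, against 60.4% of the CDS peaks, and the median GC of the 5′ UTR windows was 70.3%. It was the only exonic peak of the members that the other replicate lacked altogether.

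TP53BP1 (chr15:43403061-43510728, minus strand) had 4 exonic peaks in replicate 1, the most of the members, and 3 in replicate 2, as many as TP53BP2. All of them lay inside the coding sequence. Of its 28 exons, the peaks found in both lists sat in the 3 longest internal ones. Exon 12, with 1327 nt, had a peak at chr15:43455919-43456592 with fold enrichment 9.86 in replicate 1 and at chr15:43456048-43456593 with fold enrichment 5.92 in replicate 2. Exon 17, with 484 nt, had a peak at chr15:43432202-43432592 with fold enrichment 7.67 in replicate 1 and at chr15:43432233-43432481 with fold enrichment 3.09 in replicate 2. Both were higher in replicate 1. The exon 12 site printed above had its GGAC adenine 29 nt before the summit of replicate 1, and none lay in the window of replicate 2, whose nearest DRACH adenine was 1 nt before the summit. The exon 17 site had its GGAC adenine 38 and 34 nt after the summits. A second GGAC ends the printed exon 17 sequence in lower case. Its adenine was 47 nt after the summit of replicate 2 and outside the window of replicate 1.

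Exon 21 of TP53BP1, with 431 nt, went the other way. Its peak spanned chr15:43420283-43420640 with fold enrichment 3.17 in replicate 1 and chr15:43420308-43420621 with fold enrichment 7.0 in replicate 2, with summits 1 bp apart. On the log2 scale, replicate 1 minus replicate 2 was -1.14, at the 0.408th percentile of all exonic pairs, the lowest among the members. The window of this peak held neither GGAC nor any other DRACH word on the gene strand in either replicate, and it is printed for that reason, with no capitals.
TP53BP1 exon 21, replicate 1, chr15:43420421-43420521: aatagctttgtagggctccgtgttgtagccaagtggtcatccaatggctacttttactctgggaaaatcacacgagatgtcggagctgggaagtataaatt
The whole peak held 1 GGAC in each replicate.

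The last exon of TP53BP1, number 28 with 4510 nt, is its longest and held no peak in either replicate. Near the 3′ end of the gene the TUBGCP4 gene, which codes for a subunit of the gamma-tubulin complex, overlaps on the opposite strand. A replicate 1 peak at chr15:43408984-43409652 with fold enrichment 3.06 had its summit in TP53BP1 exon 26 and in a TUBGCP4 exon at once. The overlapping replicate 2 peak at chr15:43409059-43409598, with fold enrichment 4.01, had its summit 99 bp away in a TUBGCP4 exon alone. A further peak, at chr15:43408021-43408218 in replicate 1 with fold enrichment 4.43 and at chr15:43408030-43408191 in replicate 2 with fold enrichment 2.92, lay in a TP53BP1 intron and a TUBGCP4 exon. These 2 peaks can therefore not be assigned to TP53BP1. With the exon 26 peak left out, TP53BP1 had 3 exonic peaks in each replicate, as many as TP53BP2. Of the 6686 genes with an exonic peak in both replicates, 1264 (18.9%) had 3 or more in each.

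TP53BP2 (chr1:223779893-223845954, minus strand) had 3 exonic peaks, each found in both replicates. The one in exon 18, the last, lay past the stop codon. In replicate 1 it spanned chr1:223780389-223780873 with fold enrichment 7.76 and −log10 q 35.7. In replicate 2 it spanned chr1:223780441-223780869 with fold enrichment 14.0 and −log10 q 63.6, the highest fold enrichment of any member in that list. The summits lay 151 and 155 nt after the stop codon, with the GGAC of the printed exon 18 site 23 and 19 nt further downstream.

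The other two peaks of TP53BP2 lay in the adjoining coding exons 13 and 12, of 776 and 463 nt. The exon 13 peak had fold enrichment 7.49 in replicate 1, at chr1:223795980-223796509, and 3.73 in replicate 2, at chr1:223795992-223796417. The exon 12 peak had fold enrichment 4.90 in replicate 1, at chr1:223798443-223798632, and 2.80 in replicate 2, at chr1:223798386-223798587. Both coding peaks were thus higher in replicate 1, while the peak at the stop codon of the same transcript was higher in replicate 2. In exon 13 the GGAC adenine stood 10 and 15 nt before the summits. In exon 12 it stood 46 nt before the summit of replicate 1, and replicate 2, whose summit was 67 bp further on, had none in its window.

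**Figure D1:**
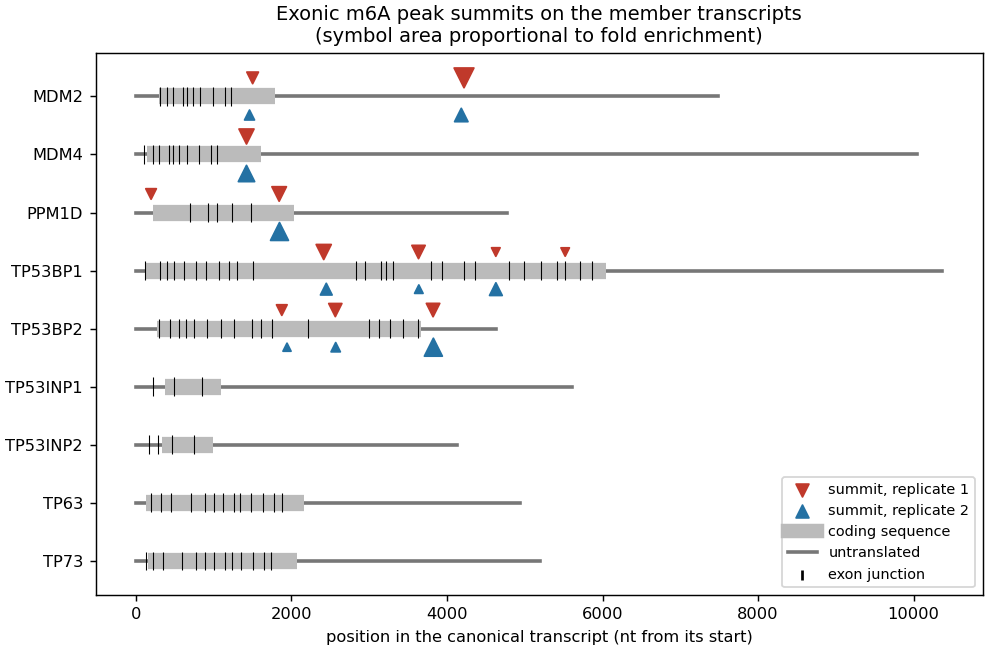
Exonic summits on the canonical transcripts of the 9 genes. The x axis is the position in nt from the transcript start, thick grey is coding sequence, thin grey is untranslated, black ticks are exon junctions, and triangles above and below each line are summits of replicates 1 and 2 with an area proportional to fold enrichment. The summits of MDM2, MDM4 and the stronger PPM1D peak lie past the last junction, those of TP53BP1 in exons 12, 17 and 21 and those of TP53BP2 in exons 12 and 13 in long internal exons, 1 replicate 1 summit of TP53BP1 in the short exon 26, and the lower 4 genes have none.

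**Figure D2:**
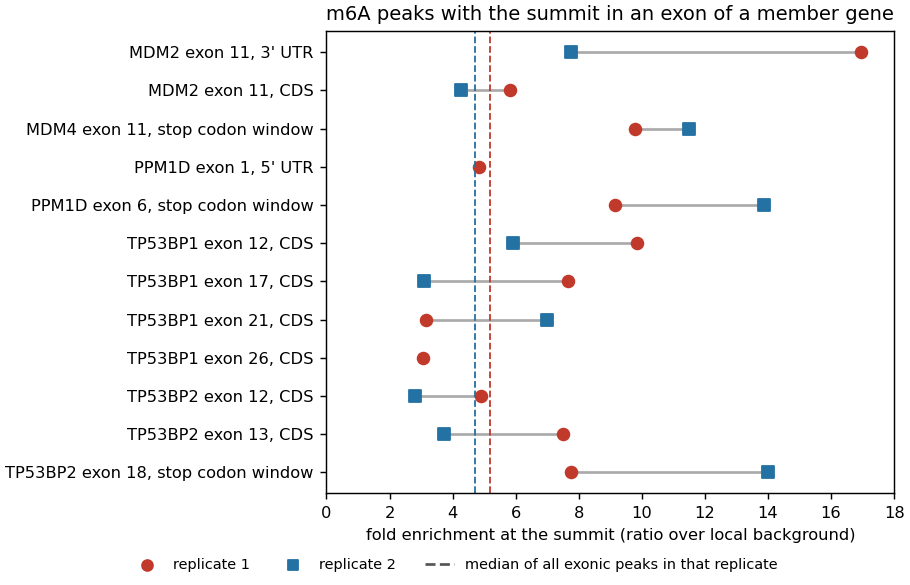
Fold enrichment (x axis, a ratio over the local background, linear from 0) of each exonic peak of the members, with circles for replicate 1 and squares for replicate 2 joined by a line. The dashed lines are the medians of all exonic peaks, 5.18 in replicate 1 and 4.70 in replicate 2. MDM2 in the 3′ UTR is far higher in replicate 1. The 3 peaks within 200 nt of a stop codon and TP53BP1 exon 21 are higher in replicate 2. PPM1D exon 1 and TP53BP1 exon 26 have an exonic summit in replicate 1 only.

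The 4 members without an exonic peak differed in what surrounded them. TP63 (chr3:189631389-189897276) held 1 intronic peak, in replicate 2 alone, at chr3:189747749-189747889, with fold enrichment 3.44 and −log10 q 1.73. TP73 (chr1:3652516-3736201) held none, and the nearest peaks were 22601 bp away in replicate 1 and 23656 bp in replicate 2, both on TPRG1L. TP53INP1 (chr8:94925972-94949378) held none, and its nearest peaks were 135975 and 131051 bp away. TP53INP2 (chr20:34704339-34713439) held none either, although NCOA6, whose gene covers it on the opposite strand, carried 6 exonic peaks in the first replicate and 5 in the second. The closest of these NCOA6 peaks were 27174 and 27190 bp from TP53INP2.

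These transcripts differed in how much of the motif they held. The canonical TP73 transcript held 31 GGAC (5.97 per kb, the 80.4th percentile of protein-coding genes) and TP53INP2 held 19 (4.60 per kb, the 63.5th percentile). TP63 held 14 (2.83 per kb, the 32.2nd percentile) and TP53INP1 held 11 (1.96 per kb, the 14.7th percentile). The 5 genes with peaks ranged from 1.69 per kb in MDM4 to 3.57 in TP53BP1, all under the median of 3.76 over protein-coding genes. Each of the 4 transcripts also had 1 exon of at least 400 nt. GGAC density thus did not order the members by whether a peak was called.

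Among the 5 genes with peaks, the summits lay mostly in long exons. Long exons also hold more of the sequence, for example 6271 of 7490 nt in MDM2 and 9008 of 10050 nt in MDM4. The counts below are per exon, and none was made per nt. The canonical transcripts of MDM2, MDM4, PPM1D, TP53BP1 and TP53BP2 together have 11 exons of 400 nt or more, a length set after the values were seen. In replicate 1, 10 of these 11 held a summit, and in replicate 2, 9 of 11 did. TP53BP1 exon 28 was without one in both and PPM1D exon 1 in replicate 2. Of the 63 shorter exons, 1 held a summit in replicate 1, the exon 26 shared with TUBGCP4, and 0 did in replicate 2. Over all genes with exonic peaks in both replicates, 83.2% of exons of 400 nt or more held a summit in replicate 1 and 76.2% in replicate 2, against 5.47% and 1.86% of shorter exons. The members were therefore close to the background of methylated genes. The median internal exon was 85 nt in MDM2, 100 nt in MDM4, 156 nt in TP53BP1, 157 nt in TP53BP2 and 210 nt in PPM1D.

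On the transcript with the longest coding sequence, 3 of 11 member peaks in replicate 1 and 3 of 9 in replicate 2 lay within 200 nt of the stop codon. They were those of MDM4, PPM1D and TP53BP2. Over all exonic peaks on such transcripts the shares were 24.5% and 27.1%. Of the rest, 7 in replicate 1 and 6 in replicate 2 were coding and 1 in replicate 1 was in the 5′ UTR, while the MDM2 3′ UTR peak lies outside that transcript. MDM4 and PPM1D were near the edge of this window, with summits 194 to 198 nt before the stop codon.

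GGAC was found within 50 nt of 8 of 12 exonic summits in replicate 1 and 5 of 10 in replicate 2, where all exonic peaks gave 49.7% and 51.7%. On the opposite strand of the same windows it was found at 4 summits in each replicate. Any DRACH word was near 11 of 12 and 9 of 10 summits, against 85.5% and 88.8% of all. Within the whole peak, GGAC was present in 11 of 12 and 9 of 10. The shares over all exonic peaks were not computed for the opposite strand or the whole peak. Within 50 nt of the summit, the members had GGAC and DRACH about as often as other exonic peaks.

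**Figure D3:**
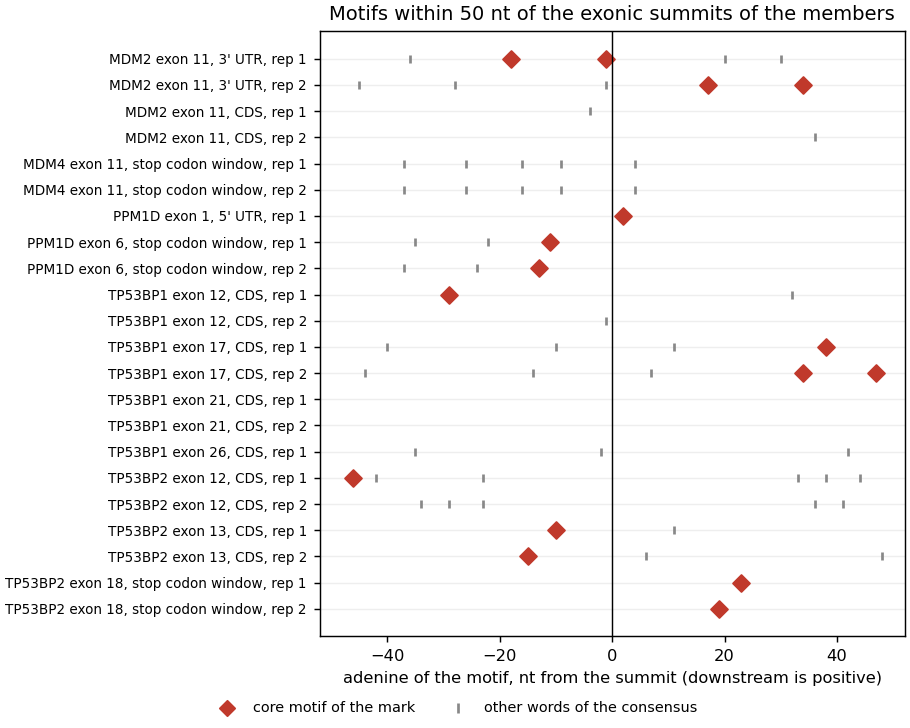
Position of motifs around each exonic summit of the members. The x axis is the distance in nt of the motif's adenine from the summit, downstream positive, each row is 1 peak in 1 replicate, red diamonds are GGAC and grey ticks are other DRACH words. MDM4 and the MDM2 coding peak show grey ticks alone, TP53BP1 exon 21 shows none, and the GGAC of MDM2, both PPM1D peaks, TP53BP2 exon 13 and exon 18 lies within 23 nt of the summit in replicate 1.

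The members' peaks were largely shared between the replicates. In each list 12 of 13 overlapped a peak of the other by at least 1 bp (92.3%, 95% Wilson interval 66.7% to 98.6%, which covers counting error only). For exonic peaks this was 11 of 12 in replicate 1 and 10 of 10 in replicate 2, where 60.5% and 95.9% of all exonic peaks were shared. The unshared ones were the PPM1D 5′ UTR peak and the TP63 intronic peak. For the 10 pairs that were exonic in both, the summits lay a median of 4.5 bp apart, from 0 in MDM4 to 67 in TP53BP2 exon 12. Over all 11018 exonic pairs, which needed an exonic summit in replicate 1 only, the median distance was 26 bp. By that rule the TP53BP1 exon 26 pair, with summits 99 bp apart, would join the members' pairs.

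Fold enrichment was less alike than position. The median of the members' exonic peaks was 7.58 in replicate 1 (range 3.06 to 17.0) and 6.46 in replicate 2 (range 2.80 to 14.0), and 8 of 12 and 6 of 10 were above the median of all exonic peaks. Both ends of the replicate 1 range are peaks of uncertain gene, TP53BP1 exon 26 and the MDM2 3′ UTR. These counts, and those of motifs and sharing above, include both in replicate 1 and the MDM2 peak in replicate 2. Of the 10 exonic pairs, 6 were higher in replicate 1 and 4 in replicate 2, with a median log2 ratio of replicate 1 over replicate 2 of 0.59 (SD 0.89, n = 10 peaks). Over all exonic pairs the median was 0.43 and 80.2% were higher in replicate 1. Those pairs needed an exonic summit in replicate 1 only, so the bases differ. By that rule the TP53BP1 exon 26 pair, with a log2 ratio of -0.39, would join the members' pairs higher in replicate 2.

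The 4 pairs that were higher in replicate 2 were the 3 within 200 nt of a stop codon and TP53BP1 exon 21. Their log2 ratios were -0.23 for MDM4, -0.60 for PPM1D, -0.85 for TP53BP2 and -1.14 for TP53BP1. Among all exonic pairs these stood at the 10.9th, 3.59th, 1.60th and 0.408th percentile. Over all genes, 81.0% of the 2849 pairs in the stop codon window were higher in replicate 1. Among the fifth of pairs with the lowest GC, 27.1% were higher in replicate 2, against 14.2% in the fifth with the highest. The part of position, GC or mRNA level in the members' ratios was not tested. The order of the genes by fold enrichment therefore depends on the replicate: MDM2 came first and TP53BP2 last in replicate 1, and TP53BP2 came first, with PPM1D beside it, and TP53BP1 last in replicate 2. With the MDM2 coding peak alone, at 5.83 and 4.28, MDM2 was last in both.

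**Figure D4:**
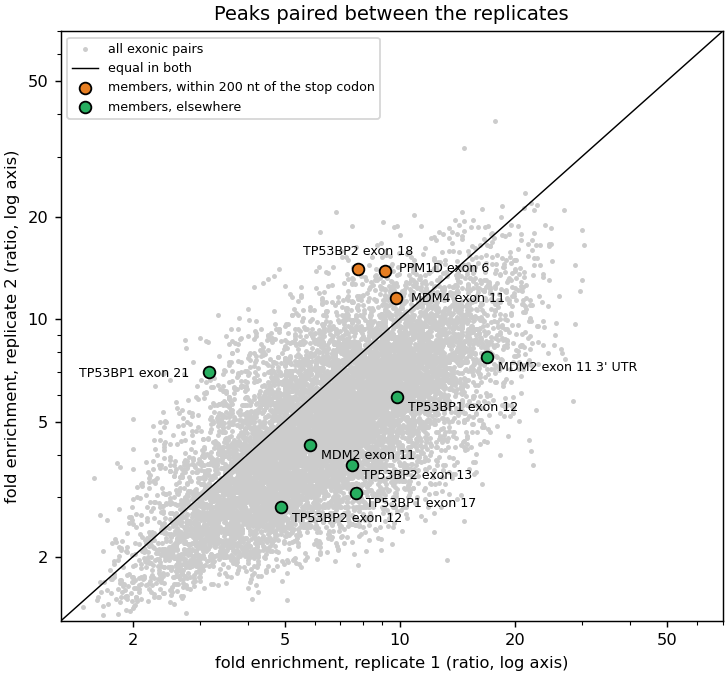
Fold enrichment of peaks paired between the replicates, with replicate 1 on the x axis and replicate 2 on the y axis, both ratios on log axes. Grey points are all 11018 pairs with an exonic summit in replicate 1, and coloured points the 10 of the members that were exonic in both. Orange marks summits within 200 nt of the stop codon, and the line marks equal values. The orange points and TP53BP1 exon 21 lie above the line, and the other 6 members lie below it with most grey points.

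Taking the best exonic peak of each gene, the geometric mean of the fold enrichment over both replicates was 11.5 for MDM2, 11.3 for PPM1D, 10.6 for MDM4, 10.4 for TP53BP2 and 8.31 for TP53BP1. Among the 6686 genes with an exonic peak in both, whose median was 6.70, these were the 89.5th, 88.8th, 86.0th, 85.1st and 68.4th percentile. The MDM2 value rests on the 3′ UTR peak of uncertain gene, and its coding peak alone had a geometric mean of 4.99, under that median and the lowest of the 5. The TP53BP1 value combines different peaks, exon 12 in replicate 1 and exon 21 in replicate 2. MDM2, PPM1D, MDM4 and TP53BP2 lay closer together than the replicates of MDM2, PPM1D and TP53BP2 did, so no order is read among them. The genes whose best values lay nearest to those of MDM2 on the log2 scale, over 2 replicates, were CPM, ZNF45 and KLHL28. CPM had the distance 0 because it shares the peak. ZNF45 had 17.2 and 7.73, and KLHL28 had 16.7 and 7.94.

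Beyond the 9 members, 10 of 20 other regulators of p53 had an exonic peak in both replicates, 13 in replicate 1 and 10 in replicate 2. TP53RK, a kinase that phosphorylates p53 and belongs to the tRNA-modifying KEOPS complex, had the strongest of these, with fold enrichment 18.4 in replicate 1 and 19.99 in replicate 2 in its last exon, 176 and 155 nt before the stop codon. BRD7, a bromodomain cofactor of p53, had 12.5 and 10.5 in its 3′ UTR, where ADCY7 has an exon on the opposite strand, so the gene is uncertain. SIRT1, a deacetylase of p53, had best values of 8.84 and 9.35, but in different exons, and its 1 shared peak had 3.62 and 9.35.

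The ASPP family, to which TP53BP2 belongs, was not uniform. PPP1R13B (ASPP1), the closest relative of TP53BP2, carried 5 in the first replicate and 6 in the second, with best values of 11.2 in exon 12 in replicate 1 and 8.41 in exon 1 in replicate 2. The exon 1 peak was not shared, and the exon 12 peak had 3.6 in replicate 2. Its shared peaks lay in exons 11 and 12, in the last exon and in an exon outside the longest coding transcript. PPP1R13L (iASPP), the inhibitory relative, had no exonic peak in either replicate. TP53BP2 and PPP1R13B thus each had peaks in a pair of adjoining coding exons and in the last exon. Of genes with an exonic peak in both replicates, 18.9% had 3 or more in each. How many of those share this layout was not counted, so no likeness particular to the family is read. Also without an exonic peak were COP1 and RCHY1, ubiquitin ligases of p53, HDAC1, TPRKB, and RPL5 and RPL11, the ribosomal proteins that bind MDM2. KAT5, OTUD5 and USP7 had a peak in replicate 1 alone. The genes without a peak or with a peak in replicate 1 alone were named after their values were seen.

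Of 23 genes that p53 switches on, 13 had an exonic peak in both replicates, 17 in replicate 1 and 13 in replicate 2. The 4 with the largest geometric mean were PMAIP1, XPC, BBC3 and AEN. PMAIP1 (NOXA), a BH3-only death protein, had best values of 11.3 in exon 1 in replicate 1 and 10.8 in exon 2 in replicate 2. Its exon 1 peak had 11.3 and 7.49 in the replicates, and its exon 2 peak 8.80 and 10.8. XPC, which finds damage for nucleotide excision repair, had 11.2 and 8.80 in exon 9, in the coding sequence. BBC3 (PUMA), a further BH3-only protein, had 13.9 and 5.13, with a summit 16 nt before the stop codon in both replicates. AEN, an exonuclease of apoptosis, had best values of 9.67 in exon 4 in replicate 1 and 6.81 in exon 2 in replicate 2, so these too belong to different peaks.

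CDKN1A (p21), the inhibitor of cyclin-dependent kinases that arrests the cycle downstream of p53, had 1 peak, in replicate 1 alone, with fold enrichment 1.61. DDB2, FDXR and ZMAT3 likewise had a peak in replicate 1 alone, with 3.76, 7.02 and 3.52. BAX, CCNG1, PERP, PHLDA3, PLK3 and RRM2B had none. These 10 genes were named after their values were seen. The shares with a peak in both replicates were 50% of other regulators and 56.5% of target genes, both above the 33.4% of all protein-coding genes, but the lists were written with earlier results of these data known and mRNA levels were not matched.

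**Figure D5:**
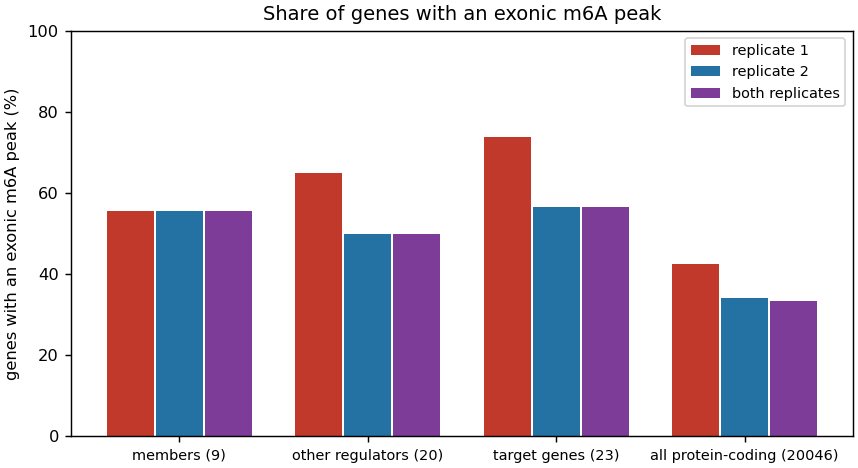
Share of genes with an exonic m6A peak (y axis, percent, from 0) in replicate 1, replicate 2 and both, for the 9 members, 20 other regulators of p53, 23 target genes and all 20046 protein-coding genes. The bars for genes with peaks in both replicates stand at 55.6%, 50%, 56.5% and 33.4%.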

How the data were processed

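Peak lists of meRIP-seq in OE-19 cells were used, 1 for each of 2 m6A IP samples. Groups and replicate numbers were taken from the sample titles, and whether the replicates came from separate cultures is not given in the labels. The 2 input samples had no list analysed here. The study's methods name TopHat2 and MACS2 on hg38, whereas the submitters' processing notes name fastp, HISAT2 and MACS2, with no versions. Whether input reads were the control for peak calling is not given in the sources used here. The authors deposited for each peak a summit fold enrichment, which is a ratio against local background, −log10 of the p-value and −log10 of the q-value. They also deposited a score and the summit position, and the score and the p-value were not used. No q-value exceeded 0.0491 (replicate 1) or 0.0497 (replicate 2), close to a limit of 0.05. The lists hold no read counts, so depth could not be used to weigh values.

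All sequence names (44 and 53) matched hg38. Summits were assigned to GENCODE version 44 genes, and an exonic peak has its summit in an exon of any transcript of the gene. The stop codon was taken from the transcript with the longest CDS, except in the members' codon numbers and printed distances. Those, and exon numbers, came from the Ensembl canonical transcript. Peaks were paired where each was the other's largest overlap, of 1 bp or more. The gene strand within 50 nt of a summit was searched for motifs. Named were all members, the 4 genes of each list with the largest geometric mean fold enrichment, genes without a peak where 5 or fewer, and the 3 genes nearest to the top member. The members and lists were chosen with earlier results of these data known. No test was made, so nothing was fitted. The alternatives were stricter q and fold limits, other windows, overlaps, transcripts and peak positions, and each replicate left out. Scripts (Python 3.11.15, numpy 2.4.6, pandas 2.3.3, scipy 1.17.1, pysam 0.24.0, samtools 1.23.1, matplotlib 3.10.9) were tested on simulated data.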

Additional observations from a re-analysis of the deposited data

How the results depend on the processing

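The 5 members with an exonic peak in both replicates numbered 5 under every alternative tried, including each replicate left out. Leaving out a replicate, or counting any summit in the gene body or any base of a peak in an exon, could not lower this count. With fold enrichment limited to 5 or more, MDM2 stayed in this count only through its 3′ UTR peak of uncertain gene. Its coding peak had 5.83 in replicate 1 and 4.28 in replicate 2. Of 63 alternative values over 14 results, 55 stayed near the reported value and 8 moved. Near was a wide limit: a set ratio for counts, the Wilson interval for shared shares and the SD for the log2 ratio. For instance, 13 other regulators against 10 counted as near. Only the median log2 ratio could reverse by these rules, and it did not. At a fold enrichment of 5 or more, the gene-body peaks fell from 13 to 8 in replicate 1 and from 13 to 6 in replicate 2, and the target genes with a peak in both from 13 to 8. At q of 1e-05 or less in both lists, the shared share in replicate 2 was 100%, since the TP63 peak, the only one it did not share, drops out, and in replicate 1 it was 84.6%. Summits with GGAC in replicate 1 went from 8 to 5 with a window of 25 nt and to 3 around peak midpoints. With a window of 100 nt around the stop codon, 0 peaks remained in replicate 1 and 0 in replicate 2, since the 3 summits lie 151 to 198 nt from it. No paired analysis was possible because the m6A IP samples alone had peak lists, so there was no other group to compare. With no read numbers and 2 samples, the precision of a single fold enrichment is unknown.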

Other observations

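TP53BP2 had a further peak just outside its gene body, 399 bp away in replicate 1 with fold enrichment 4.85 and 367 bp away in replicate 2 with fold enrichment 3.61, with the summit in an exon of the gene ENSG00000288999. The rule on summits in the gene body leaves this peak out of the counts. No other member had an outside peak nearer than the 21902 bp between MDM4 and the PIK3C2B peak.

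The lncRNA ENSG00000257181, antisense to the MDM2 3′ UTR, and the antisense genes TP73-AS1, TP73-AS2 and TP73-AS3 had no exonic peak in either replicate. NDUFAF6, whose gene covers TP53INP1 on the opposite strand, had none either.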
